A study of Mus musculus with 15 samples.

Results

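The genes described here are 9 genes of blood clotting and clot breakdown: Serpine2, Plau, Plaur, Plat, F3, F13a1, Thbd, Procr and Tfpi. They were chosen by name, for what their products are known to do, from the 33340 genes of the count table, with earlier results of these data known. All 9 had enough counts to be tested, among 17457 genes tested in all. The libraries were polyadenylated RNA-seq of whole lungs of C57BL/6 mice. Bleomycin, a DNA-damaging drug that injures and scars the lung, was given into the trachea at 5 U/kg, and lungs were taken at day 7 (4 libraries), day 14 (4 libraries) and day 21 (3 libraries). The controls were 4 day 0 libraries, of which replicates 1 to 3 have the treatment label none. Day 0 replicate 4 has a control title and a treatment label that names bleomycin, and was kept at day 0 by its title. The study's methods give the mice as males of 10 to 12 weeks. No transgene or deletion is part of these groups. The labels do not say whether each library was 1 animal, so p-values measure the spread between these libraries.

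As background, clotting starts when blood meets tissue factor, the product of F3, which binds factor VII and leads to thrombin and then to a fibrin mesh. Factor XIII, whose catalytic subunit F13a1 encodes, ties the fibrin strands together. On the healthy endothelium the process is held back by Tfpi, which blocks tissue factor with factor VII, by Thbd (thrombomodulin), which turns thrombin toward activation of protein C, and by Procr, the receptor that presents protein C. Fibrin is removed by plasmin, which is made from plasminogen by Plau (urokinase) and Plat (tissue plasminogen activator). Plaur holds urokinase at the cell surface, and Serpine2 (protease nexin-1) inhibits thrombin, urokinase and tissue plasminogen activator. Fibrin in the air spaces and loss of its breakdown are known features of injured and fibrotic lungs.

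On GRCm38 (mm10), with the GENCODE M21 annotation, Thbd (148404466 to 148408188, a single exon), Tfpi (84432855 to 84476775) and Procr (155751117 to 155755471) lie on chromosome 2, at a distance from each other. F3 is on chromosome 3 (121723537 to 121735048), F13a1 on chromosome 13 (36867178 to 37050244), Plau on chromosome 14 (20836660 to 20843385), Plat on chromosome 8 (22757727 to 22782844), Plaur on chromosome 7 (24462484 to 24475968) and Serpine2 on chromosome 1 (79794197 to 79861180). Counts were summed over whole genes. Exons of F13a1 overlap Gm30489 on the opposite strand by 74 bases, 1.1% of its exon length, where reads of the 2 genes cannot be told apart without strand. Exons of the other 8 genes overlap no other gene.

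RefSeq promoter windows (250 bases before a start site, GRCm38.p6) were matched for 6 of the 9 genes, in 8 windows. The stretches of 4 of them are printed, because F3 and Plaur were high in the same libraries of days 7, 14 and 21, while Procr and Serpine2 were called higher on every day after bleomycin. Capitals mark matches to TGANTCA, the AP-1 motif, which reads the same on both strands. Each stretch is given 5′ to 3′ on the strand of its gene, and bases that GENCODE counts as exon of the same gene were left off. The stretches are F3 (chr3:121723287-121723536, plus strand, 250 bases, of which 116 also lie in Gm43823 on the opposite strand), Plaur (chr7:24462233-24462482, plus strand, 250 bases), Procr (chr2:155750967-155751116, plus strand, 150 bases) and Serpine2 (chr1:79858697-79858915, minus strand, 219 bases).
F3: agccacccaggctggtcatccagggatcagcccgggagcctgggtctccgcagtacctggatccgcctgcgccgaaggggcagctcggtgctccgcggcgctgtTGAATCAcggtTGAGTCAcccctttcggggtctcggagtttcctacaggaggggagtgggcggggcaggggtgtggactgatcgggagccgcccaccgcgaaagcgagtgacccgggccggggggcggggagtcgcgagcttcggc
Plaur: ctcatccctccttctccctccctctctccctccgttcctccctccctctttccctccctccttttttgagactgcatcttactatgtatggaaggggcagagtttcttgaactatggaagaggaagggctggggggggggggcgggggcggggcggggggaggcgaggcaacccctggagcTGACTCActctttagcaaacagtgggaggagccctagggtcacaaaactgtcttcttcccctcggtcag
Procr: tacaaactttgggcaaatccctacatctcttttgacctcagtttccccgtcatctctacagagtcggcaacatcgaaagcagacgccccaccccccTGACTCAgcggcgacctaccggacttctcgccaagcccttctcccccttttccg
Serpine2: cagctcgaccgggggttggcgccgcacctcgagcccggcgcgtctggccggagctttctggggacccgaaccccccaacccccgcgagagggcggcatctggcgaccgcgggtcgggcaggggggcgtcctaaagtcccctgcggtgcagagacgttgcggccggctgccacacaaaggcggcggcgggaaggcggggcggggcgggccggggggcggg

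The AP-1 letters were found in the 250 bases of 3 of the 6 genes. In F3 they lie at 146 to 140 and 135 to 129 bases before the RefSeq start site. In Plaur they lie at 69 to 63 bases before that site, and in Procr at 154 to 148 bases before it. The RefSeq start site of Procr lies inside the gene as GENCODE gives it, as does the whole Serpine2 window. Of all 32851 promoters in the table, 6.75% hold an AP-1 match. The GC box GGGCGG, searched on both strands, is held by 32.7% of promoters. The Serpine2 window holds 6 matches, some of which overlap, in a sequence of 78.8% G and C. F3 and Plaur hold 3 matches each and both Tfpi windows 1 each. The KLF letters CCACACCC (3.2% of promoters) were found in F3, the NF-kB letters GGACTTTCC (0.283% of promoters) in the second F13a1 window and the TATA box TATAAA (12.4% of promoters) in the first Tfpi window, all on the opposite strand. The SMAD letters CAGACA (17.1% of promoters) were found in no window. These are matches of letters, with no measurement of binding.

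The libraries held 15652008 to 18020661 counts and 22100 to 23970 genes with a count. Lung epithelial markers summed to between 10600 and 69560 CPM (counts scaled to library size, with TMM adjustment), and none of the endothelial, epithelial, fibroblast or macrophage markers was at 0 in all libraries. The share of counts from mitochondrial genes was 2.28% and 2.31% in day 0 replicates 1 and 2 but 4.22% and 4.05% in replicates 3 and 4. It was 2.03% to 2.15% at day 7, 2.1% in day 14 replicate 1, 3.74% to 4.14% in the other day 14 libraries, and 2.66% to 4.01% at day 21. Heart muscle markers summed to 18.8 to 757 CPM, and were highest in day 21 replicate 1 and day 7 replicate 4. The part of these differences in the results below was not tested, and fits that use the mitochondrial share are given with the genes whose calls against day 0 they change. Fits within the libraries of lower share compare the 4 day 7 libraries with day 0 replicates 1 and 2 alone. Those of higher share compare day 14 replicates 2 to 4 with day 0 replicates 3 and 4 alone, and replicate 4 is the one whose treatment label names bleomycin.

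Of the 9 genes, 8 had a higher mean than day 0 on each day after bleomycin, and Thbd, the most abundant of them at day 0, was lower. A call needed a fold change over 1.5 and, in edgeR's quasi-likelihood test over all 17457 genes, a Benjamini-Hochberg adjusted p under 0.05. At day 7, Plau, Procr and Serpine2 were called higher, 3 of 9 against 8.78% of all genes tested, and none was called lower against 7.36% of all genes. At day 14, Plau, Serpine2, Procr, F3 and Plat were called higher, 5 of 9 against 12% of all genes, and Thbd was called lower, 1 of 9 against 11.2%. At day 21, Plau, Serpine2, Procr, F3 and Tfpi were called higher, 5 of 9 against 12.4% of all genes, and Thbd again was called lower, 1 of 9 against 10.1%. The median log2 fold change of the 9 genes was 0.89 at day 7, 1.11 at day 14 and 1.41 at day 21, beside medians of 0.01, 0.02 and 0.02 over all genes. The 3 comparisons share the day 0 libraries. Because the 9 genes were chosen with earlier results of these data known, their shares beside those of all genes are a description and no test. An F test for any difference among the 4 days passed an edgeR adjusted p of 0.05 for 6 of the 9 (39.9% of all genes did): Procr, Plau, Serpine2, Tfpi, Thbd and F3. It did not pass for Plat (adjusted p = 0.0594), F13a1 (0.158) or Plaur (0.166). That of F3 was lost without any 1 of the 4 day 0 libraries (edgeR adjusted p = 0.0524 to 0.0651). Plat passed in 5 alternatives, among them the mitochondrial share as a covariate (0.0275), and F13a1 passed with that covariate (0.0274) and without day 14 replicate 1 (0.0272). In bulk tissue, a change in the number of cells that make a transcript and a change in the amount per cell cannot be told apart.

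**Figure D1:**
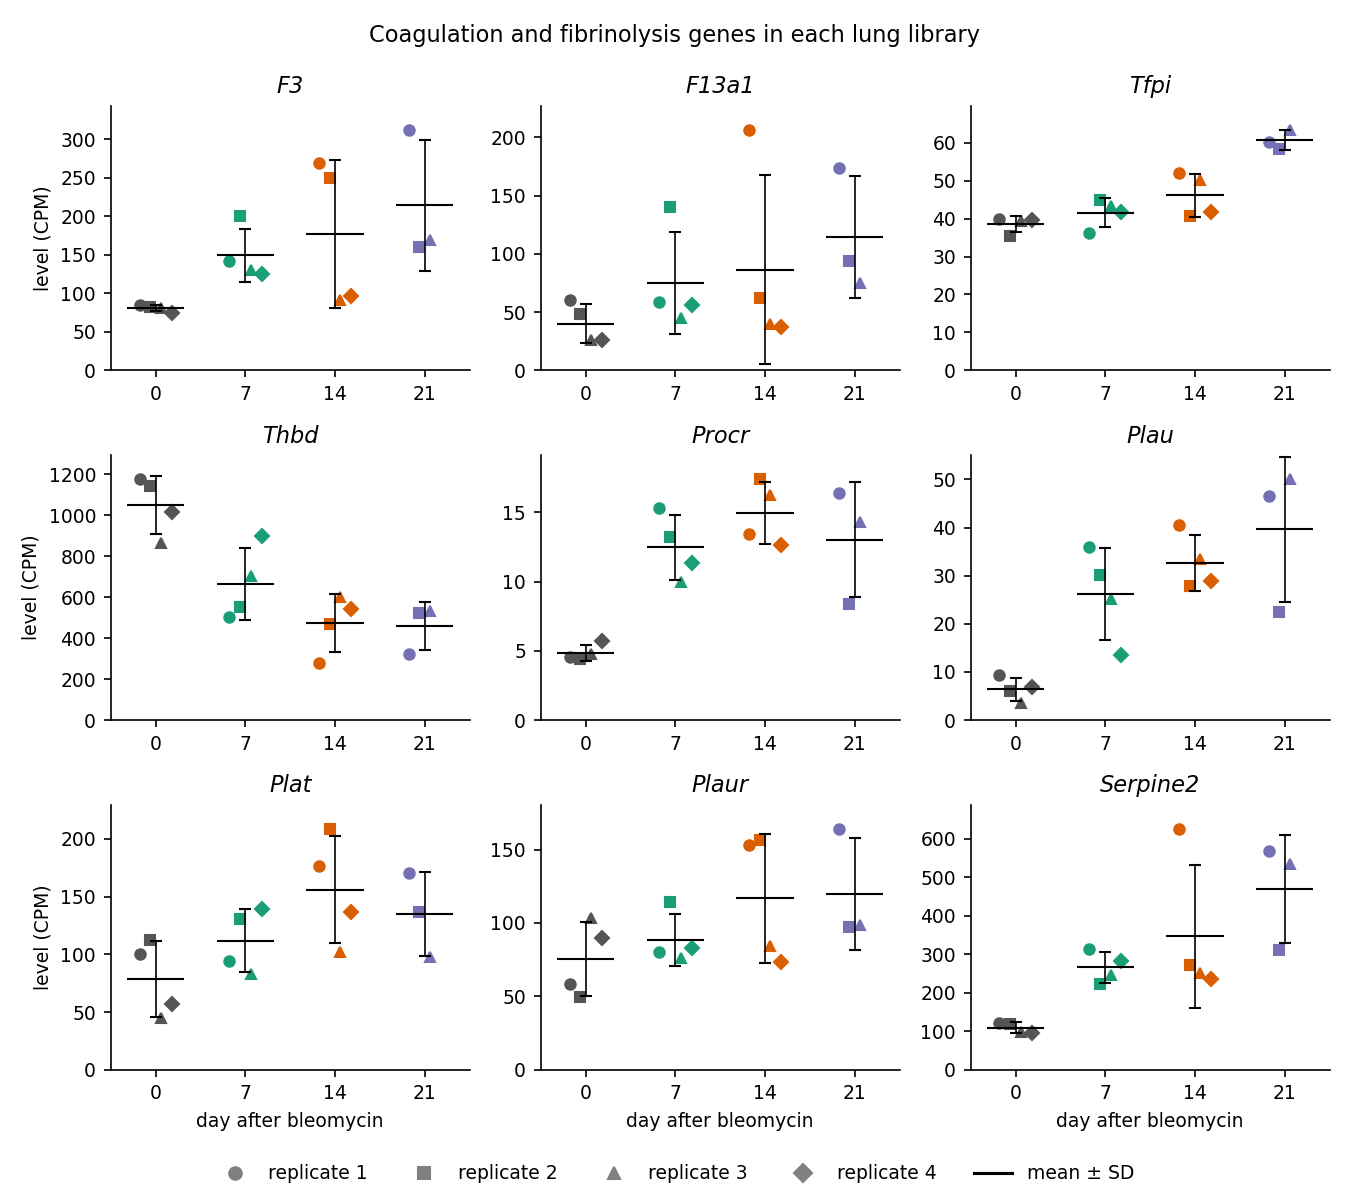
Level of each gene in CPM (vertical axes, from 0) by day after bleomycin, 1 point per library, with the replicate number shown by the shape of the point and the mean ± SD by the black line and bar (n = 4, 4, 4 and 3). Thbd is the gene whose mean falls, from 1049 CPM at day 0 to 459 CPM at day 21, and day 14 replicate 1 stands alone at the top for Serpine2 (625 CPM) and F13a1 (207 CPM).

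Per kilobase of exon, Thbd had the highest level of the 9 at day 0 (282 ± 37.9 CPM per kb, mean ± SD, n = 4). F3 (32.0 ± 1.61) and Plaur (28.8 ± 9.65) followed and did not differ beyond their spread, as did Serpine2 (13.1 ± 1.71) and Plat (12.6 ± 5.25). Tfpi (7.06 ± 0.376) and F13a1 (5.96 ± 2.52) came next, and Plau (2.72 ± 1.02) and Procr (2.39 ± 0.285) were lowest. At day 21, Thbd (123 ± 32.0 CPM per kb, n = 3) and F3 (84.8 ± 33.8) were close to each other, and Serpine2 (56.7 ± 16.9) had passed Plaur (45.8 ± 14.6) in the mean. Plat (21.6 ± 5.80), F13a1 (17.0 ± 7.76) and Plau (16.7 ± 6.35) overlapped, and Tfpi (11.1 ± 0.472) and Procr (6.41 ± 2.05) were lowest. The order depends on the length used. With the mean transcript length, 4 of the 9 ranks at day 21 differ, and Serpine2 (267 CPM per kb) and F3 (187) lie above Thbd (123).

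Tissue factor rose. F3 stood at 84.5, 82.8, 81.0 and 75.2 CPM in day 0 replicates 1 to 4 and at 142.5, 200.2, 130.6 and 125.4 CPM in the 4 day 7 libraries. At day 14 it was at 269, 249.8, 91.1 and 96.9 CPM, and at day 21 at 313, 160.5 and 169.8 CPM. Every library after bleomycin lay above every day 0 library, but at day 14 replicates 3 and 4 lay close to day 0, while replicates 1 and 2 were the highest of that day. Its log2 fold change was 1.13 (95% confidence interval 0.44 to 1.81, edgeR adjusted p = 0.0142) at day 14 and 1.41 (0.68 to 2.13, adjusted p = 0.00611) at day 21, or 2.19-fold and 2.65-fold. At day 7 it was 0.89 (0.21 to 1.57, adjusted p = 0.0541), just short of the call. Day 7 was called in 5 of 20 alternatives, among them DESeq2 (0.86, DESeq2 adjusted p = 0.0306) and the replicate number as a block (0.86, edgeR adjusted p = 0.0294).

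The F3 calls were lost in several alternatives. Without day 14 replicate 1 or replicate 2, the day 14 adjusted p was 0.061 and 0.0588, and without day 21 replicate 1 that of day 21 was 0.0562. In glmTreat, edgeR's test of whether a change exceeds 1.5-fold, the day 14 adjusted p was 0.124. Within the libraries of higher mitochondrial share, day 14 gave 0.90 (edgeR adjusted p = 0.18), and within those of lower share day 7 gave 0.82 (adjusted p = 0.0176).

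Tfpi, the inhibitor of the tissue factor pathway, varied little between libraries and was called at day 21 alone. It stood at 39.9, 35.5, 39.3 and 39.6 CPM at day 0, at 36.2, 44.9, 43.3 and 41.9 CPM at day 7, and at 51.9, 40.7, 50.2 and 41.7 CPM at day 14. At day 21 it was at 60.1, 58.4 and 63.5 CPM, above every earlier library. Against day 0, it differed on the log2 scale by 0.11 (-0.11 to 0.32, edgeR adjusted p = 0.459) at day 7, 0.26 (0.04 to 0.47, adjusted p = 0.0605) at day 14 and 0.65 (0.42 to 0.88, adjusted p = 0.000407) at day 21. The day 21 rise of 1.57-fold is near the fold change that a call needs. Without day 0 replicate 2 or day 21 replicate 3 it came to 0.58 on the log2 scale, under that fold change, with adjusted p of 0.00245 and 0.00493, and glmTreat gave an adjusted p of 0.461. Of the 9 genes, Tfpi is also the one with a small adjusted p between 2 later days: day 21 lay 0.54 above day 7 on the log2 scale (0.32 to 0.77, edgeR adjusted p = 0.00649), again under the fold change needed.

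Within each library, the log2 ratio of F3 to Tfpi per kb of exon was 2.18 ± 0.122 (SD, n = 4) at day 0. It was 2.94 ± 0.286, 2.88 ± 0.861 (n = 4 each) and 2.87 ± 0.543 (n = 3) on days 7, 14 and 21. The day 7 and day 21 libraries (lowest 2.69 and 2.53) all lay above the highest day 0 library (2.33), while day 14 ran from 1.97 to 3.73.

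Thrombomodulin fell. Thbd stood at 1176, 1141, 864 and 1016 CPM at day 0 and at 505, 551, 705 and 898 CPM at day 7, where replicate 4 lay within the day 0 range. At day 14 it was at 277, 469, 602 and 544.5 CPM and at day 21 at 322, 525 and 531 CPM, and all 7 of these libraries lay below every day 0 library. The log2 fold change was -1.15 (-1.66 to -0.64, edgeR adjusted p = 0.00204) at day 14 and -1.19 (-1.76 to -0.63, adjusted p = 0.0035) at day 21, a fall to 0.451 and 0.438 of the day 0 level. At day 7 it was -0.66 (-1.17 to -0.15, adjusted p = 0.0549). Day 7 was called lower in 8 of 20 alternatives. Among them were DESeq2 (-0.68, DESeq2 adjusted p = 0.024) and the replicate number as a block (-0.72, edgeR adjusted p = 0.0269). Left without day 7 replicate 4, the day 7 value was -0.84 (edgeR adjusted p = 0.0268), and within the libraries of lower mitochondrial share -0.82 (adjusted p = 0.0247).

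Markers of endothelium, the cells known for thrombomodulin, went in different directions by list. Over all genes, 8.78%, 12% and 12.4% were called higher at days 7, 14 and 21, and 7.36%, 11.2% and 10.1% lower. Of 12 general endothelial markers, 4 were called lower at day 7, 5 at day 14 and 3 at day 21, and none higher. Their median log2 fold changes were -0.51, -0.53 and -0.46, against -0.66, -1.15 and -1.19 for Thbd. Their summed level was 4102 to 4844 CPM before bleomycin, and 2845 to 3683, 2207 to 3766 and 2895 to 3657 CPM on days 7, 14 and 21. Day 14 replicate 1, lowest for Thbd, was lowest for this sum as well. Of 6 markers of aerocytes, the capillary cells of gas exchange, 2, 3 and 4 were called lower, and of 5 general capillary markers 1, 1 and 0, with none of either list higher. Of 8 venous and arterial markers, 1, 3 and 4 were called higher at days 7, 14 and 21, and 2, 1 and 0 lower, with median log2 fold changes of 0.05, 0.36 and 0.77. The part of these markers in the fall of Thbd was not tested.

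Procr, the other receptor of the protein C path, rose on every day. It stood at 4.53, 4.41, 4.76 and 5.68 CPM at day 0 and at 15.3, 13.2, 9.99 and 11.3 CPM at day 7. The day 14 libraries were at 13.5, 17.4, 16.2 and 12.7 CPM and the day 21 libraries at 16.4, 8.37 and 14.3 CPM. No library after bleomycin overlapped day 0. The log2 fold change was 1.36 (0.92 to 1.80, edgeR adjusted p = 0.000419) at day 7, 1.62 (1.18 to 2.06, adjusted p = 4.32e-05) at day 14 and 1.42 (0.96 to 1.89, adjusted p = 0.00024) at day 21. Its calls held in all alternative fits against day 0, with log2 fold changes from 1.19 to 1.69. At days 14 and 21 the 2 receptors of this path were thus called in opposite directions in the same lungs. Per kb of exon, Procr had a far lower level than Thbd on every day.

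The log2 ratio of Thbd to F3 per kb of exon was 3.13 ± 0.183 before bleomycin, and 1.58 ± 0.615, 0.98 ± 1.29 and 0.57 ± 0.945 on days 7, 14 and 21. In linear terms its library values ran from 7.24 to 9.44 at day 0 and from 0.698 to 2.22 at day 21. The highest library of any later day (2.28 on the log2 scale, at day 7) lay below the lowest of day 0 (2.86). Day 14 replicate 1 and day 21 replicate 1 had more F3 than Thbd by this measure.

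**Figure D2:**
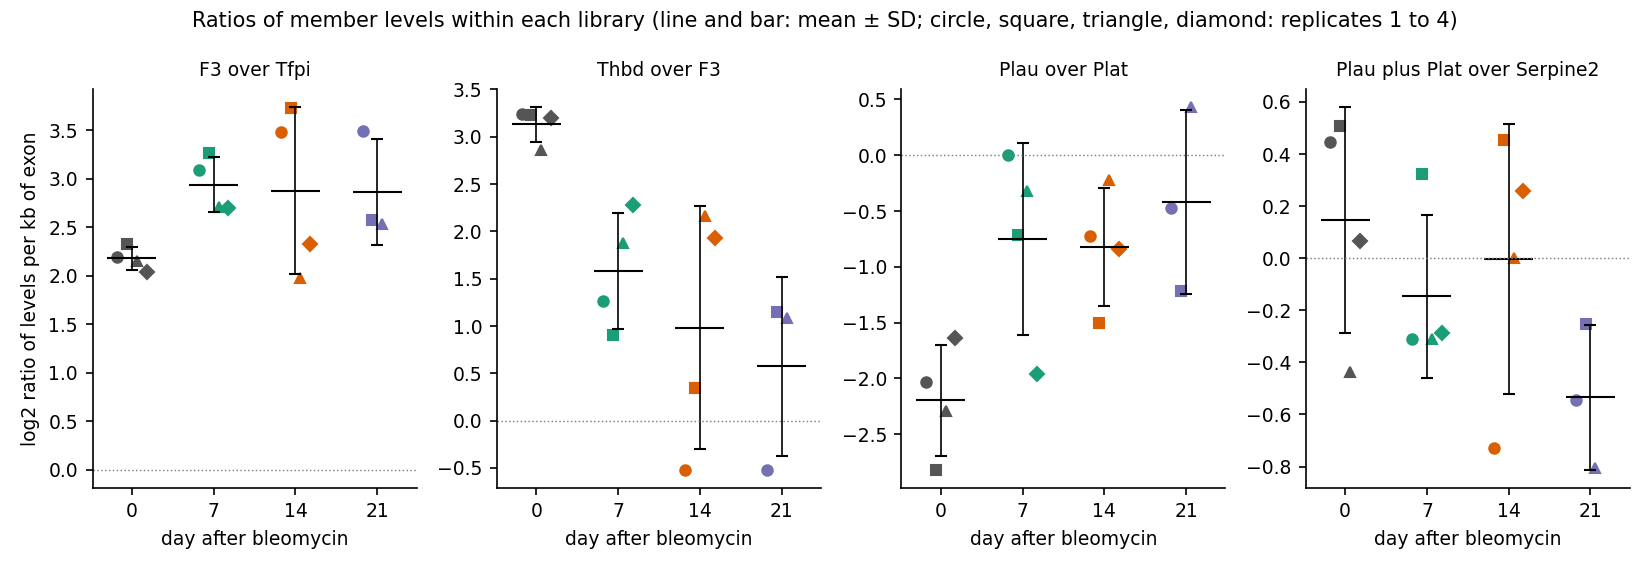
Log2 ratios of member levels per kilobase of exon within each library (vertical axes, each with its own scale) by day after bleomycin. Points are libraries, and the line and bar are the mean ± SD (n = 4, 4, 4 and 3). Thbd over F3 drops from 3.13 at day 0 to 0.57 at day 21, while Plau over Plat goes from -2.20 to -0.42.

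F13a1, the factor XIII subunit, which is also known as a product of macrophages, varied widely between libraries of the same day. It stood at 60.0, 48.6, 25.9 and 26.2 CPM at day 0 and at 58.5, 139.9, 45.1 and 56.2 CPM at day 7. At day 14 it was at 207, 61.9, 39.9 and 37.0 CPM, a range of 5.59-fold, and at day 21 at 174, 93.9 and 75.2 CPM. Day 7 replicate 2, day 14 replicate 1 and day 21 replicate 1 were the highest, and day 14 replicates 3 and 4 lay within the day 0 range. Log2 fold changes against day 0 were 0.90 (-0.21 to 2.01, edgeR adjusted p = 0.222), 1.11 (-0.01 to 2.22, adjusted p = 0.119) and 1.51 (0.32 to 2.70, adjusted p = 0.053) at days 7, 14 and 21, so no day was called. Without day 14 replicate 1, the day 14 value was 0.19. The day 7 value was 0.41 without day 7 replicate 2 and 0.18 with a covariate for mitochondrial share. Day 21 was called in 5 alternatives: with no filter (edgeR adjusted p = 0.0162), the 2 groups alone (0.0135), the replicate number as a block (0.0183), limma voom (0.0457) and a covariate for mitochondrial share (1.86, adjusted p = 0.00744). Day 14 was called within the libraries of higher mitochondrial share (0.82, edgeR adjusted p = 0.0489). Of 10 monocyte and macrophage markers, 4, 7 and 6 were called higher at days 7, 14 and 21 (8.78%, 12% and 12.4% of all genes were). Their sum ran from 370 to 513 CPM at day 0 to 797 to 1676 CPM at day 14, where replicate 1 was the highest. F13a1 and this sum were both highest in replicate 1 at days 0, 14 and 21. At day 7, F13a1 was highest in replicate 2, but the sum was at 942 CPM in replicate 1 and 778.5 CPM in replicate 2. The part of these markers in the level of F13a1 was not tested.

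Urokinase had the highest log2 fold change of the 9 genes on each day. Plau stood at 9.31, 6.04, 3.49 and 6.91 CPM at day 0 and at 36.0, 30.1, 25.2 and 13.5 CPM at day 7. At day 14 it was at 40.6, 27.8, 33.4 and 28.9 CPM, and at day 21 at 46.5, 22.4 and 50.0 CPM. Day 7 replicate 4 was the lowest library after bleomycin and still lay above all of day 0. The rise was 2.02 on the log2 scale (1.33 to 2.72, edgeR adjusted p = 0.000637) at day 7, 2.34 (1.64 to 3.04, adjusted p = 9.31e-05) at day 14 and 2.62 (1.88 to 3.36, adjusted p = 6.96e-05) at day 21, or 4.07-fold, 5.07-fold and 6.15-fold. All alternative fits kept these calls. The sum of the monocyte and macrophage markers given with F13a1 was highest in the same library as Plau at days 0, 7 and 14 (replicate 1 on each), and at day 21 in replicate 1, where Plau was highest in replicate 3. The part of these markers in the level of Plau was not tested.

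Plat, the other plasminogen activator, was called at day 14 and, in 4 alternatives, at day 21. It stood at 100.5, 112.4, 45.2 and 56.6 CPM at day 0, where replicates 1 and 2 lay above replicates 3 and 4, and at 94.7, 130.5, 83.1 and 139.4 CPM at day 7. At day 14 it was at 177, 208, 102.4 and 137 CPM, and at day 21 at 170.1, 137 and 97.8 CPM. The groups overlapped on every day. Its log2 fold change was 0.51 (-0.11 to 1.12, edgeR adjusted p = 0.211) at day 7, 0.99 (0.37 to 1.61, adjusted p = 0.0169) at day 14 and 0.78 (0.12 to 1.44, adjusted p = 0.0701) at day 21.

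The day 14 call of Plat was lost without day 0 replicate 3 (adjusted p = 0.0516), day 0 replicate 4 (0.0594) or day 14 replicate 2 (0.0648), and with glmTreat (0.187). The low day 0 replicates are those of higher mitochondrial share. Within the libraries of higher share, Plat was 1.54 higher at day 14 on the log2 scale (edgeR adjusted p = 0.0112), and within those of lower share 0.06 higher at day 7 (adjusted p = 0.871). Day 21 was called with no filter (0.73, edgeR adjusted p = 0.0463), with the replicate number as a block (0.82, adjusted p = 0.0101), with a covariate for mitochondrial share (0.93, adjusted p = 0.0268) and without day 0 replicate 2 (0.97, adjusted p = 0.0351).

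The log2 ratio of Plau to Plat per kb of exon was -2.20 ± 0.496 before bleomycin, and -0.75 ± 0.862, -0.82 ± 0.531 and -0.42 ± 0.825 on days 7, 14 and 21. In linear terms, Plau was at 0.142 to 0.322 of Plat at day 0 and at 0.431 to 1.35 of it at day 21. Day 7 replicate 4, with a low Plau and a high Plat, lay within the day 0 range.

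Plaur, the urokinase receptor, was called on no day with all 15 libraries in the fit. It stood at 58.6, 49.8, 103.2 and 89.7 CPM at day 0 and at 80.1, 115, 75.9 and 82.7 CPM at day 7. At day 14 it was at 153, 156, 84.6 and 73.3 CPM, and at day 21 at 164, 97.3 and 98.4 CPM. The groups overlapped on every day, and here day 0 replicates 3 and 4 were the high ones. Log2 fold changes were 0.23 (-0.37 to 0.82, edgeR adjusted p = 0.582), 0.63 (0.04 to 1.23, adjusted p = 0.0957) and 0.67 (0.03 to 1.31, adjusted p = 0.105) at days 7, 14 and 21, intervals that still allow a rise of over 2-fold at days 14 and 21. Day 14 was called without day 14 replicate 4 (0.80, edgeR adjusted p = 0.039), and without day 21 replicate 1 the day 21 value was 0.34. The day 7 value ran from 0.05 (without day 0 replicate 2) to 0.39 with 1 library left out. Within the libraries of lower mitochondrial share, day 7 was called (0.69, edgeR adjusted p = 0.0253), and day 14 lay 0.11 above day 0 where only libraries of higher share were compared (adjusted p = 0.834).

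Serpine2, the inhibitor of both activators and of thrombin, rose on every day. It stood at 122, 119.9, 97.6 and 95.1 CPM at day 0 and at 313, 223, 246 and 284 CPM at day 7. The day 14 libraries were at 625, 273, 252 and 236 CPM and the day 21 libraries at 566, 309.6 and 534 CPM. No library after bleomycin overlapped day 0, and day 14 replicate 1, the highest of all 15, lay far above the other 3 libraries of its day. The log2 fold change was 1.29 (0.70 to 1.88, edgeR adjusted p = 0.00414) at day 7, 1.67 (1.08 to 2.27, adjusted p = 0.000387) at day 14 and 2.11 (1.48 to 2.75, adjusted p = 0.000116) at day 21, or 2.45-fold, 3.19-fold and 4.33-fold. Without day 14 replicate 1, day 14 gave 1.20 and the call was kept. The day 7 call was lost with glmTreat (edgeR adjusted p = 0.059). When the mitochondrial share entered the fit as a covariate, day 7 gave 0.88 (edgeR adjusted p = 0.0543) and was no longer called, whereas the libraries of lower share kept the call (1.12, adjusted p = 0.00178).

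Of 8 fibroblast markers, 4, 4 and 5 were called higher at days 7, 14 and 21 and none lower. Over all genes, 8.78%, 12% and 12.4% were called higher. At day 14 the collagens Col1a1, Col1a2 and Col3a1 and also Lum were called higher. Pdgfrb lay 0.50 higher on the log2 scale and Pdgfra, Dcn and Dpt lower (-0.23, -0.42 and -0.51), none of them called. Most of the marker sum came from the collagens, with day 14 means of 2280, 2045 and 1795 CPM, against 304.6 CPM for Pdgfra. The sum of all 8 was 1687 to 2305 CPM at day 0, and day 14 replicate 1 and day 21 replicates 1 and 3, the libraries highest for Serpine2, were also the highest for it. The part of this in the level of Serpine2 was not tested. The log2 ratio of Plau plus Plat to Serpine2 per kb of exon was 0.15 ± 0.434 before bleomycin, and -0.15 ± 0.313, 0.00 ± 0.519 and -0.53 ± 0.278 on days 7, 14 and 21. Every later day overlapped day 0, and the means of days 7 and 14 lay within 1 SD of that of day 0. With the mean transcript length the means were -0.85, -1.32, -1.16 and -1.76 at days 0, 7, 14 and 21, and day 7 lay over 1 SD (0.445) below day 0.

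**Figure D3:**
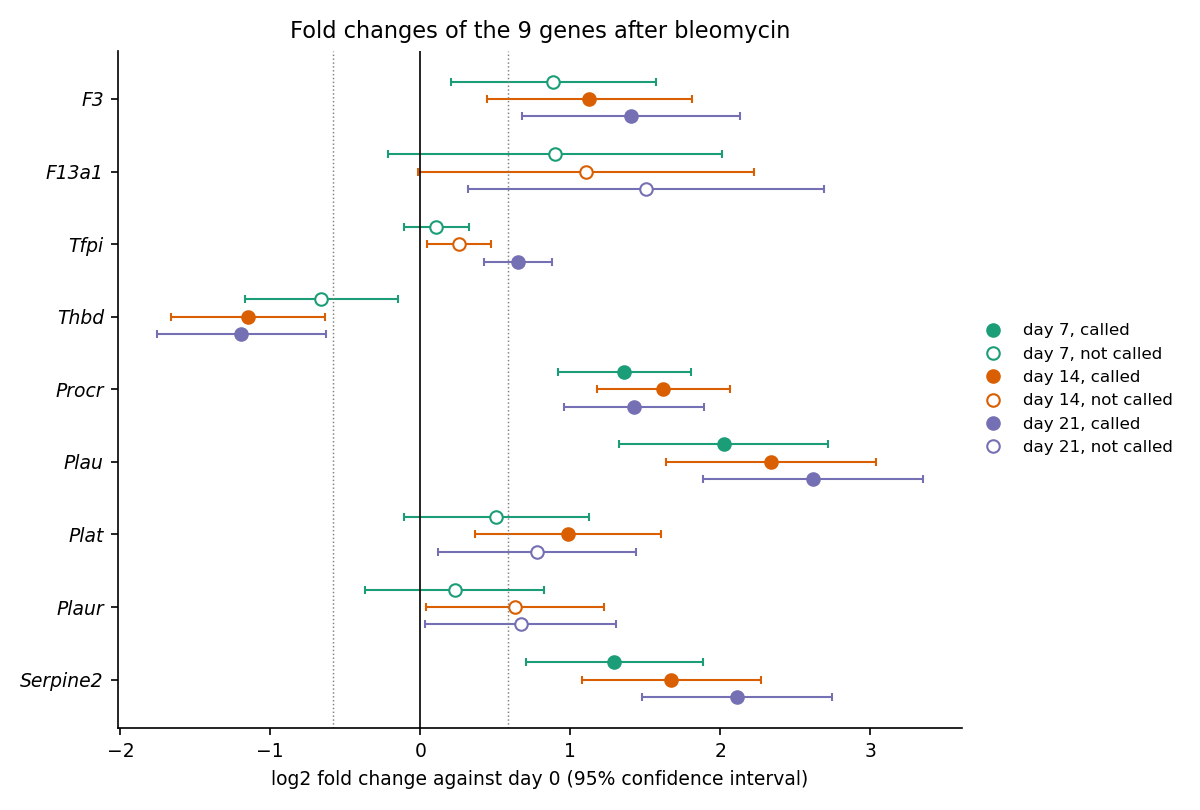
Log2 fold change of each gene against day 0 (horizontal axis) with its 95% confidence interval, for days 7, 14 and 21. Filled points are called and open ones are not, and dotted lines mark a fold change of 1.5. Plau, Procr and Serpine2 are filled on all 3 days, Thbd lies to the left of 0, and the intervals of F13a1 are the widest.

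Between the later days, none of the 9 genes was called. Over all genes, 6% were called between days 7 and 14, 9.54% between days 7 and 21, and 0% between days 14 and 21, where edgeR called 0 genes, 1714 had an unadjusted p under 0.05 and DESeq2 called 106. At an unadjusted p under 0.05, none of the 9 differed between days 7 and 14, Serpine2 and Tfpi differed between days 7 and 21, and Tfpi differed between days 14 and 21. Serpine2 lay 0.82 higher at day 21 than at day 7 on the log2 scale (0.20 to 1.44, edgeR adjusted p = 0.0741). It passed with DESeq2 (adjusted p = 0.0391) and in a fit of these 2 days alone (0.0366). For F3, the difference between day 21 and day 7 was 0.52 (-0.21 to 1.24, adjusted p = 0.3201), for Plau 0.59 (-0.10 to 1.29, adjusted p = 0.235) and for Thbd -0.53 (-1.09 to 0.02, adjusted p = 0.181). These intervals leave room for a further change of over 2-fold after day 7 in each of the 3, and for none.

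Seen library by library, the 9 genes did not vary alike within a day. F3 and F13a1 were highest of their day in day 7 replicate 2, day 14 replicate 1 and day 21 replicate 1, and Plaur was high in day 7 replicate 2, day 14 replicates 1 and 2 and day 21 replicate 1. Thbd was lowest in day 14 replicate 1 and day 21 replicate 1. At day 0, Plat and F13a1 were higher in replicates 1 and 2 and Plaur in replicates 3 and 4. The coefficient of variation within a day ran from 4.25% to 12.5% for Tfpi and from 42.2% to 93.8% for F13a1. That of F3 was 5.02% at day 0, under the 5.32% of Tfpi, and 54.3% at day 14.

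**Figure D4:**
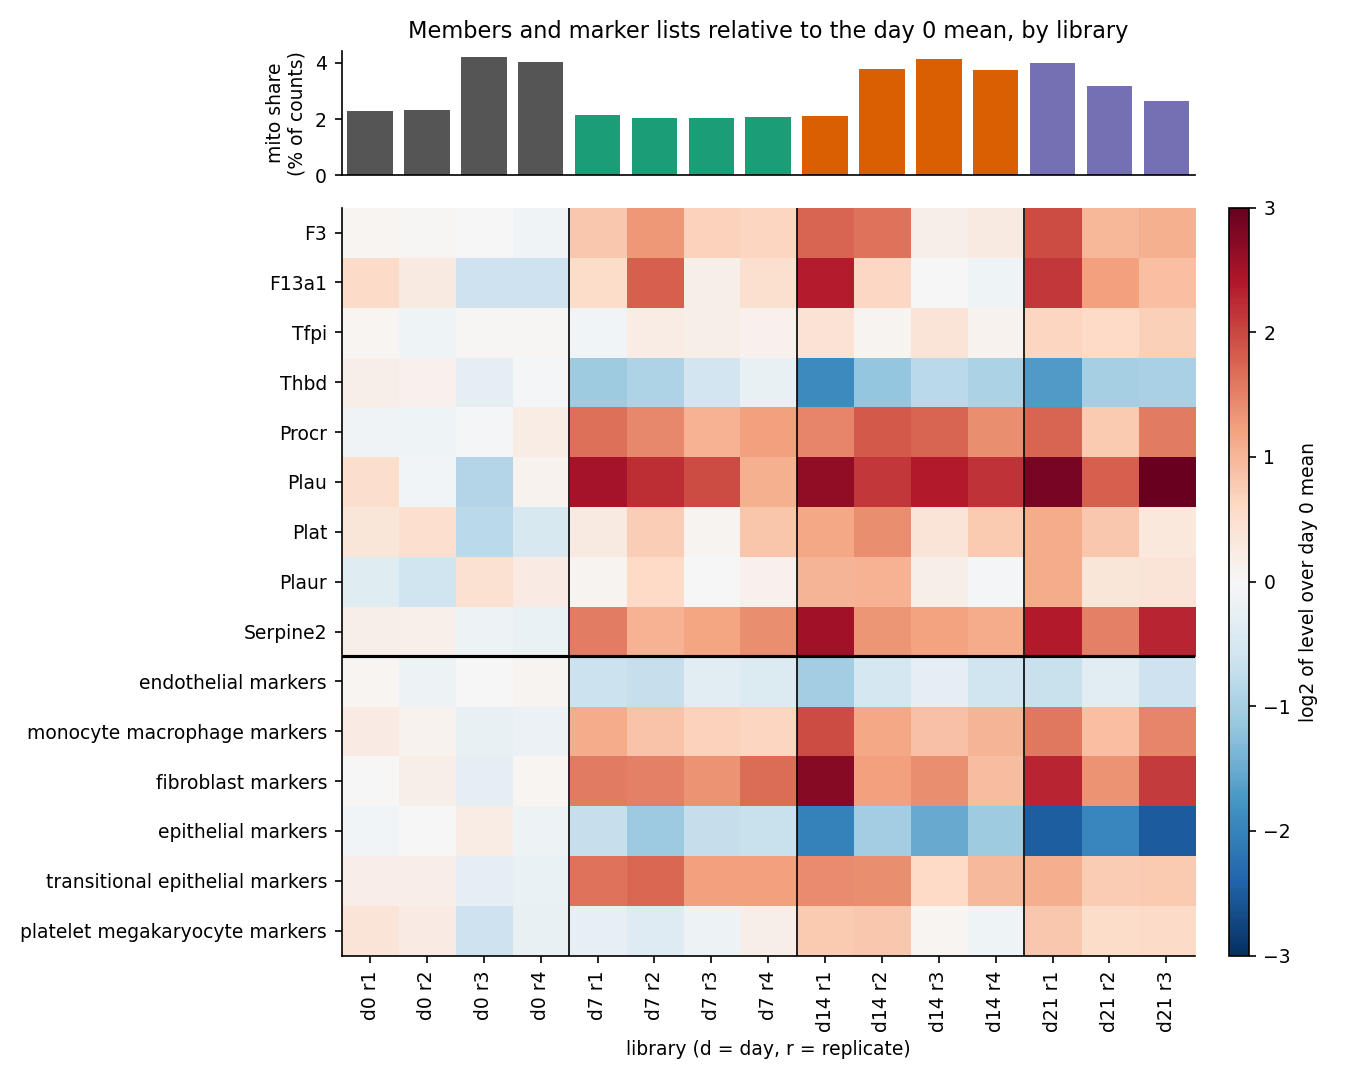
Log2 of each gene's level over its day 0 mean (upper 9 rows) and of the summed level of marker lists over theirs (lower 6 rows), with 1 column per library and the mitochondrial share of counts (%) as bars on top. Red is above the day 0 mean and blue below, and black lines part the days. Thbd is blue from day 7 on, as are the endothelial and epithelial marker sums, and day 14 replicate 1 is the darkest column of its day for Serpine2, F13a1, fibroblast and macrophage markers. The epithelial sum does not stand for each marker: at day 7 the 10 epithelial markers had a median log2 fold change of 0.08, and 2 were called lower.

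For each gene, the 3 genes with the most similar pattern were taken by Pearson correlation of log2 CPM over the 15 libraries, out of 11809 candidates. The libraries share their day groups, so these values describe likeness and carry no test. Serpine2 was most like 3 fibrillar collagen genes, Col5a1 (r = 0.983), Col1a2 (0.982) and Col5a3 (0.980). F3 was most like Bok (0.977), S100a6 (0.965) and Rtca (0.961). Plau was most like Nxpe5 (0.965), the chemokine Ccl9 (0.964) and Mdga1 (0.961). Thbd was most like Mapt (0.963), Zfp180 (0.957) and the chemokine Ppbp (0.955). Procr was most like the tubulin Tubb2b (0.962), Mrps22 (0.961) and the cell cycle kinase Cdk1 (0.959). Likeness was lower for F13a1, led by Smoc2 (0.9495), Hgsnat (0.948) and Ms4a4a (0.927), for Plaur, led by Rbm3 (0.932), Arl6ip4 (0.9225) and Nudt22 (0.9165), for Tfpi, led by the pericyte and fibroblast receptor Pdgfrb (0.898), Ppfibp1 (0.895) and Pip5k1c (0.885), and for Plat, led by Il13ra1 (0.883), the protease Furin (0.8799) and Wbp1l (0.8795).

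The other genes of these pathways were taken from lists that were also chosen with earlier results of these data known. Over all genes tested, 8.78%, 12% and 12.4% were called higher at days 7, 14 and 21, and 7.36%, 11.2% and 10.1% lower. Of 13 clotting factor and fibrinogen genes tested, 6 were called higher at day 7, 6 at day 14 and 5 at day 21, and 0, 1 and 1 lower. Their median log2 fold changes were 0.11, 0.21 and 0.86. The fibrinogen chains Fga and Fgg were higher at day 7 (3.94 ± 0.71 and 2.97 ± 0.534, log2 fold change ± SE, edgeR adjusted p = 0.00135 and 0.00134) and at day 14 (2.52 ± 0.729 and 2.25 ± 0.535, adjusted p = 0.0151 and 0.00481). At day 21 they were at 2.06 ± 0.781 and 1.18 ± 0.582 (edgeR adjusted p = 0.0575 and 0.141), short of the call. Fga had at most 8 counts in a day 0 library and 109 in the highest, day 7 replicate 4, so its fold changes rest on few counts. The kininogen Kng2 was higher at day 7 (2.07 ± 0.496, adjusted p = 0.00792), day 14 (2.39 ± 0.495, adjusted p = 0.00189) and day 21 (3.49 ± 0.514, adjusted p = 0.000167). Liver markers, set beside these genes because the liver makes most fibrinogen, summed to 0.285 to 3.92 CPM. The highest sum was in day 7 replicate 4, which was also the highest library for Fga (6.47 CPM) and Fgg (7.66 CPM). The part of this in their levels was not tested. Ggcx, the enzyme that carboxylates vitamin K dependent clotting factors, was lower at day 14 (-0.63 ± 0.210, adjusted p = 0.0314) and day 21 (-0.98 ± 0.232, adjusted p = 0.00507).

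Factor VII is the partner of tissue factor and factor X its substrate. Both were first named after their values were seen, and F7 also falls under the rule by which other genes were named. F7 was called higher on all 3 days, with log2 fold changes of 0.62, 1.58 and 1.42 (edgeR adjusted p = 0.0372, 5.39e-05 and 0.00024), and so was F10, with 0.79, 1.24 and 0.86 (adjusted p = 0.0339, 0.00189 and 0.0268). F7 stood at 17.6 to 26.0 CPM at day 0, 27.9 to 39.0 CPM at day 7, 59.3 to 69.2 CPM at day 14 and 37.4 to 85.3 CPM at day 21, and no later library overlapped day 0. F10 stood at 9.39 to 11.8 CPM at day 0, 15 to 24.2 CPM at day 7 and 22.5 to 27.5 CPM at day 14. At day 21 it was at 14.52, 10.53 and 30.44 CPM, and replicate 2 lay within the day 0 range.

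Of 7 anticoagulant genes tested other than the members, 1, 1 and 2 were called higher and 1, 0 and 0 lower at days 7, 14 and 21. Over all genes, 8.78%, 12% and 12.4% were called higher and 7.36%, 11.2% and 10.1% lower. Counts this low in a list this short lie near those shares. Tfpi2, a relative of Tfpi that inhibits several serine proteases, was higher on all 3 days, and its day 21 log2 fold change of 2.16 ± 0.244 (edgeR adjusted p = 1.89e-05) stood beside 0.65 ± 0.108 for Tfpi, a difference that was not tested. Its level was 2.07 to 2.73 CPM at day 0 and 10.4 to 11.2 CPM at day 21. Of 4 protease-activated receptor genes, which sense thrombin and related proteases, 1, 0 and 1 were called higher and none lower. These counts, too, are too few to set apart from the shares over all genes.

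Of 11 genes of the plasminogen system tested other than the members, 5, 5 and 4 were called higher and 0, 1 and 1 lower, with median log2 fold changes of 0.63, 0.59 and 0.79. The shares over all genes are those given with the anticoagulants. A2m, a broad protease inhibitor, was higher on all 3 days by 4.04 ± 0.640, 4.47 ± 0.640 and 4.41 ± 0.659 (adjusted p = 0.000549, 0.000109 and 0.00019), from at most 7 counts in a day 0 library. Vtn, the adhesive protein vitronectin, was lower at day 14 (-1.56 ± 0.277, adjusted p = 0.000573) and day 21 (-1.30 ± 0.301, adjusted p = 0.00445). Plasminogen itself, Plg, had at most 4 counts in a library and was not tested, and F13b, Serpina5 and Hrg were not analysed here.

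**Figure D5:**
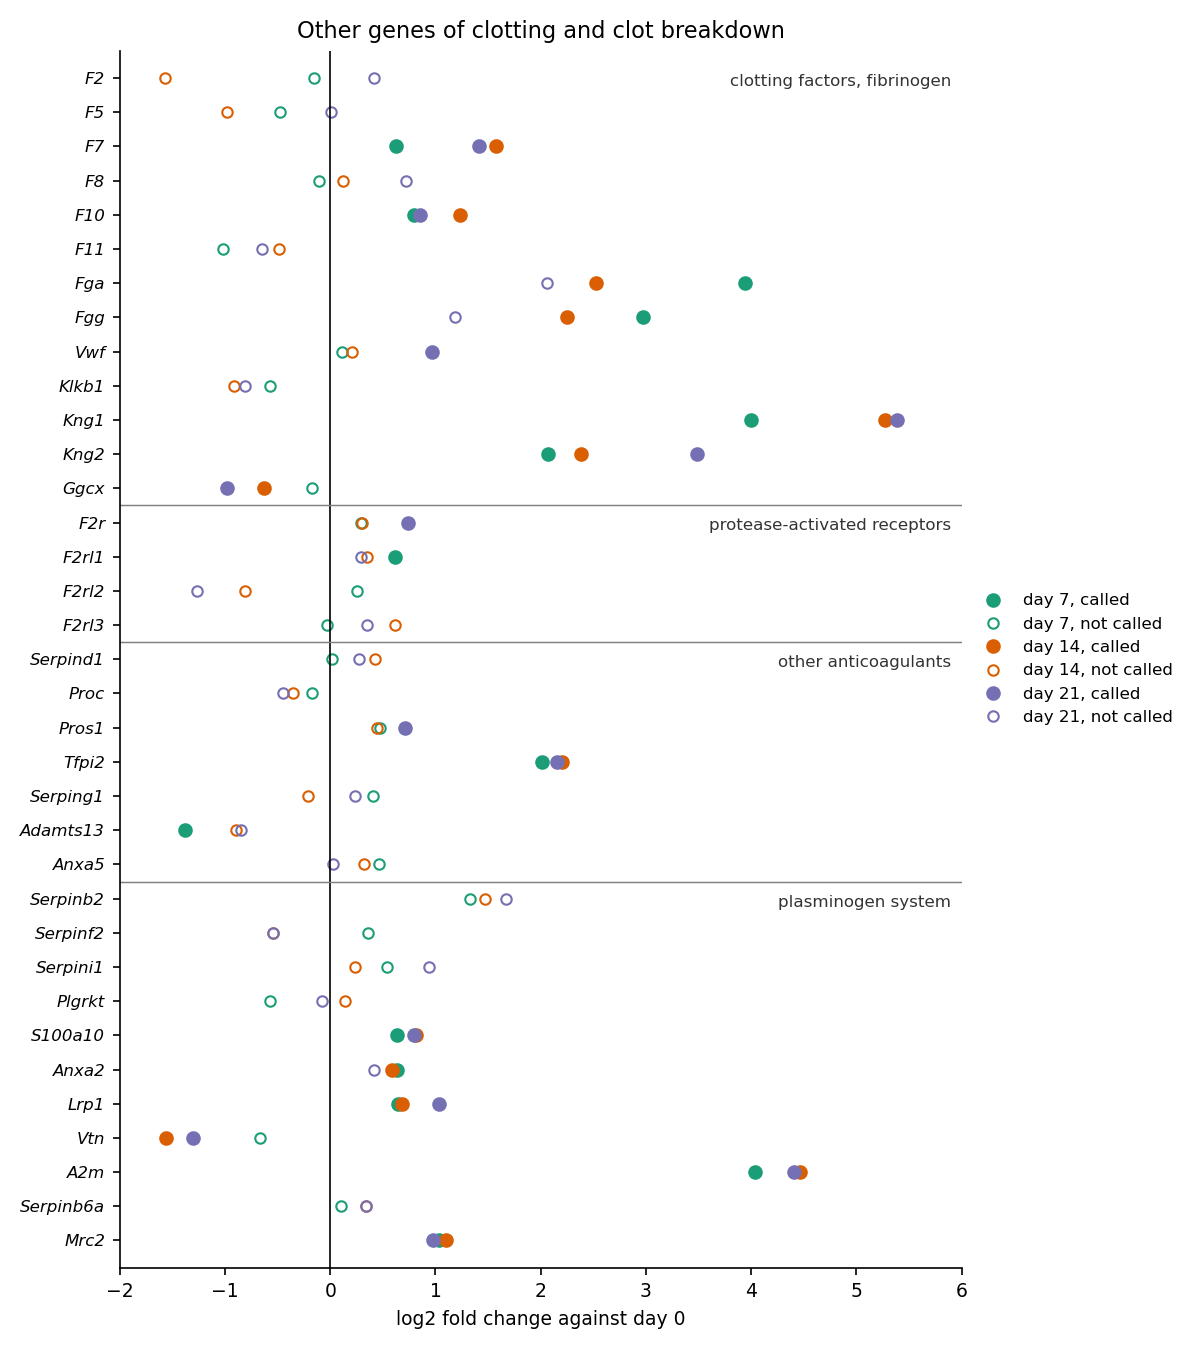
Log2 fold change against day 0 (horizontal axis) of the other pathway genes that were tested, grouped by list, for days 7, 14 and 21. Filled points are called and open ones are not. Fga, Fgg, Kng1, Kng2, Tfpi2 and A2m reach a log2 fold change of over 2, and Vtn, Ggcx and Adamts13 are called lower on at least 1 day.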

How the data were processed

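Reads of polyadenylated RNA from 15 whole mouse lung samples were trimmed with TrimGalore 0.6.10, aligned to GRCm38 with HISAT2 2.1.0 and counted per gene with HTSeq 0.6.0, per the study's methods and the submitters' processing notes. The authors deposited raw counts per gene, with no normalization. The annotation release and strand setting were not given in the sources used here. Symbols and exon lengths came from GENCODE M21, which matched 33267 of 33340 genes. Total counts were 15652008 to 18020661 per library.

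Days came from the sample titles. The series text gives 3 replicates per day, and the titles give 4 at days 0, 7 and 14. Genes were kept by filterByExpr (17457) and tested with edgeR 4.0.16 in R 4.3.3 (TMM, estimateDisp, glmQLFit, glmQLFTest, all 15 libraries in 1 fit, day as the only term), with Benjamini-Hochberg adjustment over all genes tested. The common biological coefficient of variation was 22.8%. CPM are counts scaled to TMM-adjusted library size. Ratios and levels between genes are per kb of exon union. The script was tested on simulated counts. No pair of libraries of 1 day agreed within sampling noise (lowest chi-square per gene 10.9).

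The 9 genes, the wider lists and the alternatives were chosen with earlier results of these data known, so no p was adjusted over a list. A gene of the wider lists is not reported here and was left out of their counts. Genes named besides the 9 were, per comparison with day 0, up to 4 called genes of the wider lists in each direction with the largest change and a mean of at least 1 CPM, the gene F10 (after its values were seen), and the 3 most alike of each of the 9 among genes with a mean of at least 5 CPM. Alternatives were DESeq2 1.42.0, RLE factors, total count scaling, dropping the filter, a filter at a mean of 1 CPM, the 2 groups alone, replicate number as a block, limma 3.58.1 voom, glmTreat, no fold change threshold, each library left out, the mitochondrial share as a covariate, and fits within libraries of a share under 2.5% or over 3.5%.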

Additional observations from a re-analysis of the deposited data

Results flagged for a closer look

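In 51 groups of 4 libraries (the 9 genes and the named genes of the wider lists at days 0, 7 and 14), 5 had a library far from the other 3 by Dixon's test, beside about 5% of groups expected by chance. Serpine2 was at 624.7 CPM in day 14 replicate 1, against 272.7 in the nearest library of that day. F13a1 was at 206.7 CPM in day 14 replicate 1, against 61.9 in the nearest, and at 139.9 CPM in day 7 replicate 2, against 58.5 in the nearest. A2m was at 14.2 CPM in day 14 replicate 1, against 3.44 in the nearest. These are the highest libraries of their day. Tfpi was lowest at day 0 in replicate 2, at 35.5 CPM, against 39.3 in the nearest, and the other 3 libraries were at 39.3, 39.6 and 39.9 CPM.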

How the results depend on the processing

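All 9 genes kept the direction of their change against day 0 in all alternatives. Of the 9, 3 were called at day 7, and 5 were called with DESeq2, no filter, the 2 groups alone or the replicate block, and 6 within the libraries of lower mitochondrial share. The genes gained were F3 and Thbd in each case, and Plaur in the last. RLE factors and the filter at 1 CPM gave 4 (Thbd gained), and glmTreat and the mitochondrial covariate 2 (Serpine2 lost). At days 14 and 21, 6 were called, and every alternative stayed within 1.5 times of that. With each library left out, 3 to 4 were called at day 7, 4 to 7 at day 14 and 5 to 6 at day 21. Between days 7 and 21, 0 were called, 1 with DESeq2, no filter, the 2 groups alone (Serpine2 in each) or no fold change threshold (Tfpi), and 2 (both genes) in the fit with mitochondrial share as covariate. The cause of these changes was not tested.

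Values that changed sign were all between later days and not called. Between days 7 and 14, F13a1 (0.21) was at -0.07 with the replicate block and -0.03 with limma voom. Between days 7 and 21, Procr (0.06) was at -0.12 with the covariate, and between days 14 and 21, Thbd (-0.04) was at 0.04 with the block. With each library left out, the difference of day 14 from day 7 ran from -0.07 to 0.53 for Serpine2, -0.04 to 0.46 for F3 and -0.70 to 0.70 for F13a1. That of day 21 from day 7 ran from -0.15 to 0.28 for Procr. That of day 21 from day 14 ran from -0.27 to 0.20 for Plaur, -0.11 to 0.54 for F3, -0.05 to 1.29 for F13a1, -0.24 to 0.15 for Thbd and -0.40 to 0.03 for Procr.

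Deviations of same-numbered libraries correlated at -0.244 to 0.397 (median 0.0406, 8 of 21 pairs over 0.1), those of other numbers at a median of -0.032 (13 of 63 over 0.1), and 7 of 15 libraries were closest to their own number. Same-numbered pairs thus leaned higher, but not every one was over 0.1, and the numbers were not taken as pairs. That rule is strict and cannot exclude a pairing or batch by number. The replicate block added F3 and Thbd at day 7 and Plat and F13a1 at day 21. Over all genes, 2818 were called at day 7, and 703 with glmTreat, 1269 with the covariate and 4365 with no fold change threshold. At days 14 and 21, 4040 and 3924 were called, and 1755 and 1755 with glmTreat. Between days 7 and 14, 1048 were called, and 14 with glmTreat, 218 with the covariate, 1641 with DESeq2 and as few as 340 with 1 library left out. Between days 7 and 21, 1665 were called, and 176, 942 and as few as 966. Between days 14 and 21, 0 were called, and 37 with no filter, 106 with DESeq2 and 127 without day 14 replicate 1. With the mean transcript length in place of the exon union, the ratios between genes shifted, the log2 ratio of Thbd to F3 at day 21 was -0.57 in place of 0.57, and that of Plau plus Plat to Serpine2 at day 0 was -0.85 in place of 0.15. With 3 to 4 libraries a day, confidence intervals of F13a1 spanned over 2 log2 units.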
